A study of Homo sapiens with 13 samples.

Results

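The 10 genes described here are markers and regulators of the epithelial to mesenchymal transition, taken by name from a list, out of 19894 protein-coding genes with a canonical transcription start site (TSS) in GENCODE release 44 on hg19. The epithelial group holds 4 genes (CDH1, EPCAM, ESRP1 and GRHL2) and the mesenchymal group holds 6 (CDH2, VIM, ZEB1, SNAI2, TWIST1 and FN1). They were read in MDA-MB-231 cells, an established human cell line labelled as a triple negative breast cancer of the basal b type, which were cultured under standard conditions without any treatment. Chromatin immunoprecipitation and sequencing was carried out with antibodies to H3K4me3, H3K27ac, H3K4me1, RNA polymerase II (Pol II) and CTCF in 2 replicates per antibody, whereas the p300/CBP library, of which there is 1, came from pooled immunoprecipitations. The replicates were merged by the authors before peaks were called, so each antibody is represented by 1 list of peak positions with no height or count per peak, the sequencing depth cannot be known from them, and the spread between replicates cannot be measured. All libraries are from 1 cell line in 1 condition, and the question addressed here is how the marks are distributed between the epithelial and the mesenchymal genes.

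In the epithelial to mesenchymal transition, cells give up their junctions and apical to basal polarity and take up a motile state with a vimentin cytoskeleton and a remodelled matrix. Transcription factors of the ZEB, SNAI and TWIST families drive it, in large part by binding E-boxes at the promoters of epithelial genes, and miRNAs of the miR-200 family counteract ZEB1. Among the marks, H3K4me3 and H3K27ac accompany active promoters, H3K4me1 with H3K27ac accompanies active enhancers, H3K4me1 alone accompanies inactive or poised ones, p300 and CBP are acetyltransferases found at enhancers, and CTCF binds insulators and loop anchors.

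At the 3 kb window centred on the canonical TSS, the mesenchymal group carried promoter marks at 4 of 6 genes, whereas in the epithelial group H3K4me3 was found at ESRP1 alone and H3K27ac and Pol II at none. H3K4me3 was present at 1 of 4 epithelial genes (ESRP1) and at 4 of 6 mesenchymal genes (VIM, ZEB1, SNAI2 and FN1), against 62.7% of all protein-coding genes. H3K27ac was present at 0 of 4 and at the same 4 of 6 mesenchymal genes, against 61.4% of all genes, and Pol II at 0 of 4 and 4 of 6, against 58.4%. The mesenchymal counts are thus near the shares of all genes, and the difference between the groups comes from the low epithelial counts. Genes are not replicates of a condition and the groups are small, so these counts are given as a description with no test. A gene without a listed peak has no stretch of signal above the authors' threshold, which does not show that the mark is absent.

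The other marks were rarer at these starts. H3K4me1 shared bases with the window of 1 of 4 epithelial genes (ESRP1) and 1 of 6 mesenchymal genes (VIM), against 59.3% of all genes. A p300/CBP peak was found in the window of VIM and in no other of the 10, against 0.769% of all genes, and a CTCF peak likewise at VIM and at none of the other 9, against 17.6%. Of the 10 genes, 5 (CDH1, EPCAM, GRHL2, CDH2 and TWIST1) had none of the 6 marks in the window, a state shared by 5566 protein-coding genes (28.0%).

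**Figure D1:**
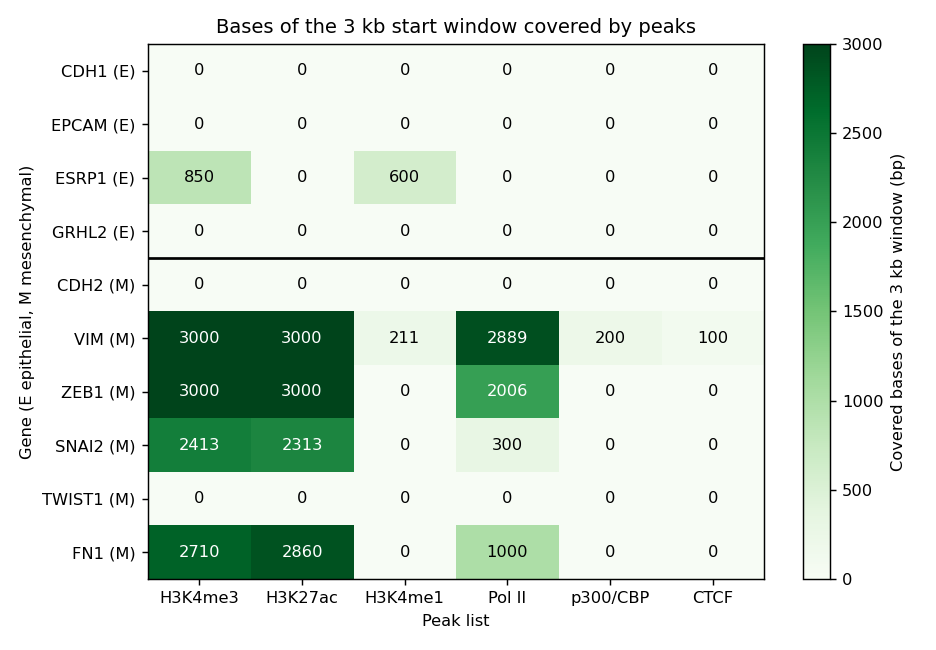
Bases of the 3 kb window around the canonical TSS (colour and printed value, bp) that peaks of each list (columns) cover at each of the 10 genes (rows, E epithelial and M mesenchymal). VIM, ZEB1, SNAI2 and FN1 have 2313 to 3000 bp covered by H3K27ac, and the 4 epithelial genes, CDH2 and TWIST1 have 0.

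CDH1 encodes E-cadherin, the adhesion molecule of epithelial junctions, and lies on chr16:68771195-68869440 on the plus strand. Its window held 0 bp of any of the 6 marks. The nearest H3K4me1 region began 3.81 kb downstream of the TSS, in intron 2, and was 6650 bp wide. The nearest H3K27ac region lay inside it, 7.01 kb downstream. The nearest H3K4me3 peak was 92.0 kb upstream, next to the start of CDH3, the neighbouring P-cadherin gene, and the nearest Pol II peak was 29.7 kb upstream. The start of CDH1 was therefore bare while its body was not. Across the gene, 5 H3K27ac regions covered 6.67% and 10 H3K4me1 regions covered 20.8%, more than in 68.1% and 78.0% of all genes, respectively, and no Pol II or H3K4me3 peak overlapped the gene.

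EPCAM encodes an epithelial cell adhesion molecule on chr2:47572297-47614740, plus strand. At the canonical TSS (position 47596450) there was no mark in the window, and the nearest H3K4me1, H3K27ac and H3K4me3 peaks were 7.60 kb, 13.2 kb and 14.1 kb away, all upstream. A second annotated start of EPCAM, 24.2 kb upstream, had H3K4me3, H3K27ac, H3K4me1 and Pol II in its window. EPCAM-DT, a long non-coding RNA (lncRNA) gene on the other strand, starts next to it, 24.3 kb upstream of the canonical TSS, and the peaks carry no strand, so the 2 genes cannot be told apart there. Of the 10 members, EPCAM and VIM had annotated starts with different marks. At VIM the second start, 1.04 kb downstream, lacked H3K4me1 and had the other 5 marks of the canonical one.

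ESRP1 encodes a splicing regulator of epithelial cells, on chr8:95653302-95719694, plus strand. It was the epithelial gene with H3K4me3, in a peak of 850 bp that ran from 0.951 to 0.102 kb upstream of the TSS and did not reach it. An H3K4me1 region of 600 bp lay within the same stretch. Among the windows with H3K4me3 over all genes, the widest peak had a median width of 2250 bp, and 6.42% had a narrower one than ESRP1. No H3K27ac peak was found within 27.9 kb and no Pol II peak within 78.1 kb. H3K4me3 with H3K4me1 and no other mark was seen at 194 protein-coding genes (0.975%). The start of LINC02894, an lncRNA gene on the other strand, is 1.71 kb upstream of ESRP1.

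GRHL2 encodes a grainyhead-like transcription factor of epithelial genes, on chr8:102504667-102681954, plus strand. Its start carried none of the marks, and the nearest H3K27ac and H3K4me1 regions were in intron 1, 8.78 and 8.73 kb downstream. No Pol II peak was found within 131 kb. Within the gene, 4 H3K27ac regions covered 2.74% and 9 H3K4me1 regions 8.43%. Like CDH1, GRHL2 had acetylated regions in its introns and none at its start.

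Turning to the mesenchymal group, VIM encodes vimentin, the intermediate filament protein of mesenchymal cells, on chr10:17270240-17279592, plus strand. All 6 marks were found in its window, a state shared by 23 protein-coding genes (0.116%). The H3K4me3 peak over the TSS was 10050 bp wide, the H3K27ac peak 9700 bp and the Pol II peak 13250 bp. These were wider than the widest peak in 99.7%, 99.0% and 97.5% of the windows that hold the mark. The Pol II peak covered 100% of the gene, which is 9.35 kb long. A p300/CBP peak of 200 bp began 211 bp downstream of the TSS and a CTCF peak of 100 bp lay 540 bp upstream. VIM-AS1, transcribed from the other strand, starts 1.78 kb downstream of the VIM start and lies under the same peaks, so they belong to the region of both genes.

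ZEB1 encodes a zinc finger repressor of epithelial genes, on chr10:31607424-31818742, plus strand. H3K4me3 covered the window in a peak of 5300 bp, H3K27ac in a peak of 7350 bp, and Pol II in a peak of 2750 bp that reached from 2.24 kb upstream to 0.505 kb downstream of the TSS. The H3K27ac peak was wider than in 97.8% of marked windows. ZEB1-AS1 starts on the other strand 0.475 kb downstream of the ZEB1 TSS, under the same peaks. H3K4me1 was absent from the window and flanked it, from 1.70 kb upstream and from 1.76 kb downstream outward.

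SNAI2 encodes the repressor SLUG, on chr8:49830157-49834299, minus strand. Its H3K4me3 peak was 3550 bp wide and its H3K27ac peak 3000 bp. Its Pol II peak was 300 bp wide, narrower than the widest Pol II peak of most marked windows, of which 5.67% had a narrower one. FN1 encodes fibronectin, a matrix protein, on chr2:216225163-216300796, minus strand. H3K4me3 at FN1 was 3350 bp wide, H3K27ac 4400 bp and Pol II 1000 bp. Both genes had the same combination as ZEB1, namely H3K4me3, H3K27ac and Pol II without the other marks, which 1208 protein-coding genes (6.07%) shared. The order of the H3K27ac widths was thus VIM, ZEB1, FN1 and SNAI2, and Pol II followed the same order. Each of the 2 windows also holds an lncRNA start on the other strand, FN1-DT at FN1 and an unnamed gene at SNAI2.

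CDH2 and TWIST1 stood apart from the other mesenchymal genes. CDH2 encodes N-cadherin, which many cells acquire when E-cadherin is lost, and lies on chr18:25512843-25757910, minus strand. Its window held no mark, the nearest H3K27ac region was 26.7 kb upstream, the nearest H3K4me3 peak 255 kb downstream and the nearest Pol II peak 1520 kb away. TWIST1 encodes a basic helix-loop-helix factor and lies on chr7:19060614-19157259, minus strand. The nearest H3K4me1, H3K27ac and H3K4me3 peaks to its TSS were 96.3, 108 and 108 kb away, while a CTCF peak lay 4.39 kb upstream. Neither gene overlapped a Pol II or H3K4me3 peak. Over the 7676 genes without H3K27ac in the window, the nearest H3K27ac peak was at a median of 37.8 kb, with quartiles of 12.8 and 103 kb. CDH1 and GRHL2 were thus nearer to one than the lower quartile, EPCAM, CDH2 and ESRP1 lay between the quartiles, and TWIST1 was beyond the upper quartile. At their starts CDH2 and TWIST1 could not be distinguished from CDH1, EPCAM and GRHL2 by the 6 lists.

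**Figure D2:**
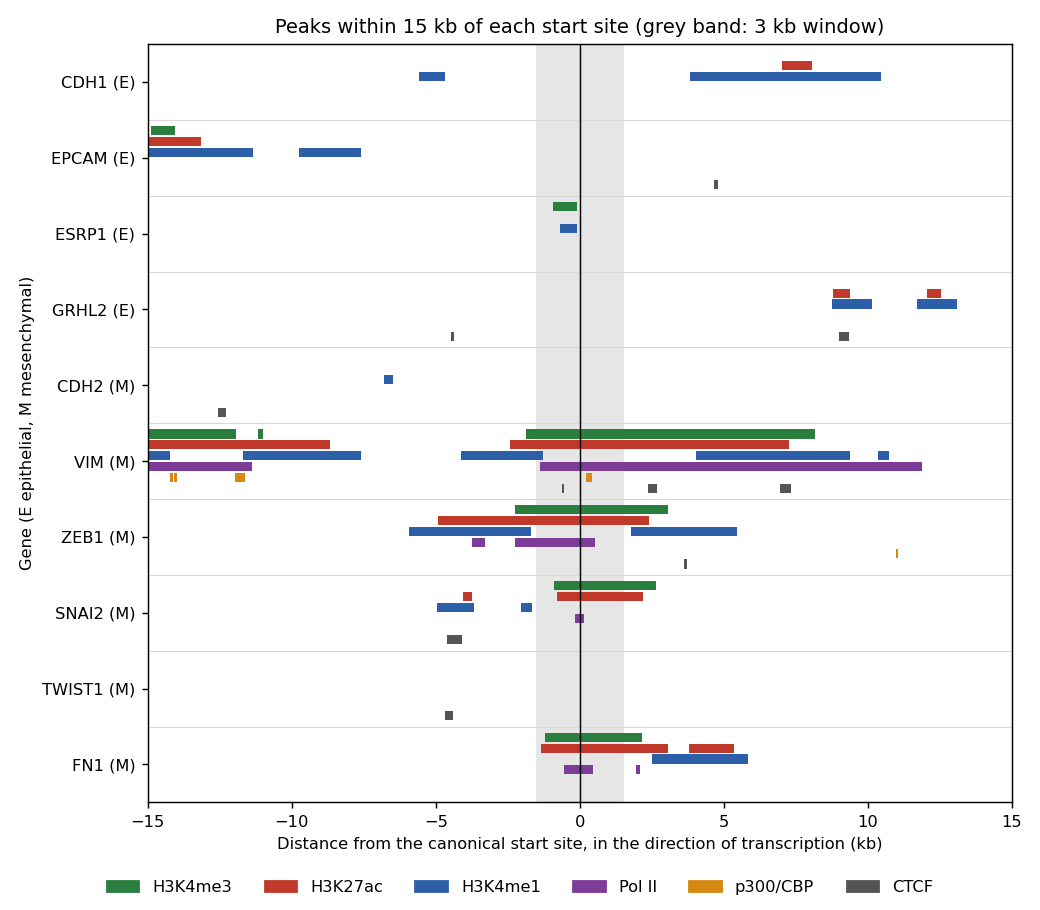
Peaks of the 6 lists (coloured bars) within 15 kb of the canonical TSS of each gene (rows, E epithelial and M mesenchymal), plotted by distance from the TSS in kb in the direction of transcription, with the 3 kb window in grey. H3K4me3, H3K27ac and Pol II cross the TSS at VIM, ZEB1, SNAI2 and FN1, and at CDH1 and GRHL2 the nearest H3K27ac regions lie 7.01 and 8.78 kb downstream.

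The E-box to which ZEB and SNAI factors bind was then looked for just before each start. The letters CACCTG or, for the other strand, CAGGTG were searched in the 250 bp upstream of each canonical TSS. They were found at 4 of 4 epithelial genes (8 matches) and at 1 of 6 mesenchymal genes (ZEB1, 2 matches), and at 17.3% of all 19894 promoters. The upstream sequences of VIM and CDH2, which hold none, are shown as a marked and a bare start of the mesenchymal group. Coordinates are of hg19, the sequences are read 5' to 3' on the strand of the gene, and an E-box would stand in capitals.
VIM (chr10:17269990-17270239, plus strand): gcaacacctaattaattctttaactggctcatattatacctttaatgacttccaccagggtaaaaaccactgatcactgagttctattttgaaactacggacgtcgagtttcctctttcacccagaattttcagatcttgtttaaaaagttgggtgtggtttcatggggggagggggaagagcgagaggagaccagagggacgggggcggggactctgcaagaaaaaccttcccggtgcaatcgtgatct
CDH2 (chr18:25757095-25757344, minus strand): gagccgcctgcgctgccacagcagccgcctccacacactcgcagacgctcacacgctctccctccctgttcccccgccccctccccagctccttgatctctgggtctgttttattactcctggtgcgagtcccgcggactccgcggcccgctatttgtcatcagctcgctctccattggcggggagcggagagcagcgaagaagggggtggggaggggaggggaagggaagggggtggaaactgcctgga
These stretches lie at starts with opposite peak states and are alike in holding no match. A match of 6 letters is a description of the sequence and does not show that a factor is bound. The CpG content did not separate the groups. In the 1 kb around the TSS the ratio of observed to expected CpG was 0.466 to 0.901 in the epithelial genes (median 0.670) and 0.661 to 0.880 in the mesenchymal genes (median 0.781), against a median of 0.726 over all genes.

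Away from the starts the contrast between the groups was not seen. Each locus was taken as the gene with 100 kb either side, and candidate active enhancers (cAEs) were H3K4me1 regions that share at least 1 bp with H3K27ac and touch no TSS window of a protein-coding gene. The 4 epithelial loci held 25 cAEs and the 6 mesenchymal loci also held 25. By gene these were 9 at CDH1, 8 at EPCAM, 1 at ESRP1 and 7 at GRHL2, and 6 at CDH2, 5 at VIM, 6 at ZEB1, 1 at SNAI2, 3 at TWIST1 and 4 at FN1. Regions at lncRNA starts and at second starts of coding genes were not left out. For example, EPCAM cAEs that begin 26.5 and 24.0 kb upstream lie on both sides of its second start. Starts of lncRNA genes also lie inside a cAE at CDH1, GRHL2, VIM, ZEB1 and SNAI2, where it is the only cAE of the SNAI2 locus. The median counts of cAEs per locus were 7.50 (epithelial) and 4.50 (mesenchymal), against 3.00 over all protein-coding genes. The counts rest on the annotated gene ends and were not read with canonical transcripts. With 100 kb either side of those transcripts, all 3 cAEs of TWIST1 would fall outside. So would the pair past the 3' end of CDH2 and the EPCAM cAE 118 kb downstream. CDH1, without any mark at its start, had more cAEs in its locus than 93.1% of all genes. These are raw counts in loci of unequal length, from 204 kb at SNAI2 to 445 kb at CDH2, with 298 kb at CDH1. By share of the locus CDH1 ranked lower. H3K27ac covered 4.73% and H3K4me1 12.8% of it, more than in 58.2% and 66.0% of all genes.

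The share of each locus covered by H3K27ac ran from 1.95% (ESRP1) to 6.54% (EPCAM) in the epithelial group, with a median of 4.12%, and from 0.876% (TWIST1) to 12.8% (VIM) in the mesenchymal group, with a median of 3.03%. The median over all genes was 3.79%, with quartiles of 1.57% and 7.50%. VIM was the member above the upper quartile and TWIST1 the member below the lower one, and the other 8 lay between the quartiles. For H3K4me1 the epithelial median was 10.8% and the mesenchymal median 6.33%, against 8.44% over all genes. The ranges of the 2 groups overlapped for both marks.

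**Figure D3:**
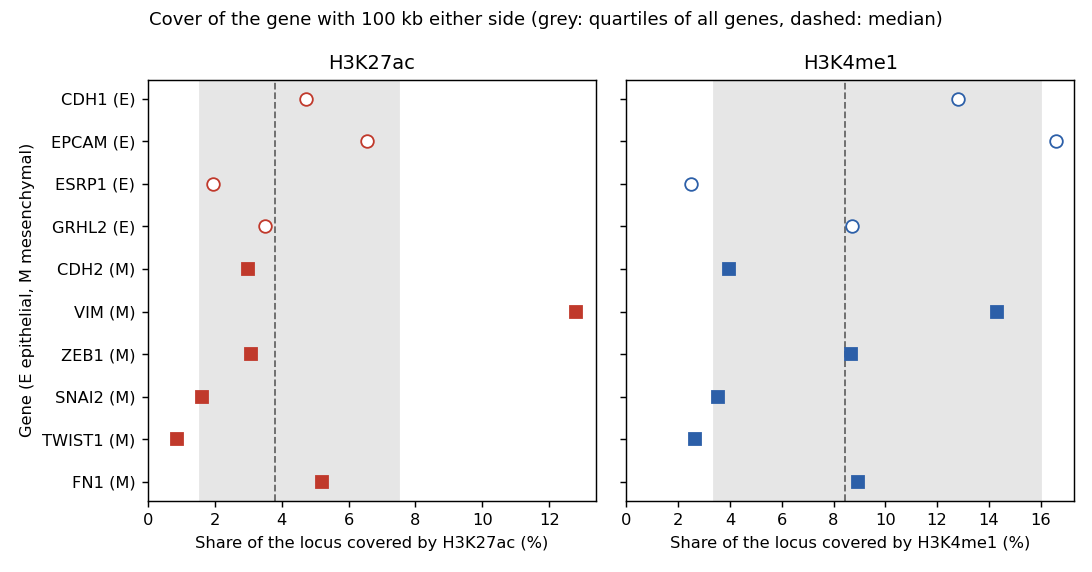
Share of the gene with 100 kb either side covered by H3K27ac (left, %) and by H3K4me1 (right, %) for each gene (open circles epithelial, filled squares mesenchymal), with the quartiles of all protein-coding genes in grey and their median dashed. VIM lies at 12.8% for H3K27ac and EPCAM at 16.6% for H3K4me1, and the groups overlap in both panels.

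H3K4me1 regions without H3K27ac outside the TSS windows, counted as candidate inactive enhancers (cIEs), numbered 31 in the epithelial and 46 in the mesenchymal loci. ZEB1 had 16 of them, CDH1 12 and GRHL2 10. TWIST1, with 3, and ESRP1, with 2, had the fewest. The locus of ESRP1 was poor in every enhancer class, with 1 cAE, 27.7 kb upstream, and no p300/CBP peak.

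At CDH1 the cAEs were spread on both sides of the gene. Within intron 2, cAEs began 3.81, 22.7 and 51.6 kb downstream of the TSS, and a further one lay 85.4 kb downstream in intron 12. The region at 51.6 kb was 5750 bp wide, held 3750 bp of H3K27ac and a p300/CBP peak of 250 bp. Upstream, 4 cAEs lay inside the neighbouring gene CDH3, between 28.0 and 101 kb from the CDH1 start. CDH3 itself had H3K4me3 and H3K4me1 but no H3K27ac at its start, and TANGO6, 106 kb downstream of the CDH1 TSS, had H3K4me3, H3K27ac and Pol II. Which gene any of these regions acts on cannot be read from the lists.

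At GRHL2 the widest cAE of the 10 loci spanned 11450 bp, from 48.2 to 36.7 kb upstream, and held 6750 bp of H3K27ac and 2 p300/CBP peaks. A second cAE in intron 8, 110 kb downstream of the TSS and 6650 bp wide, held 4 p300/CBP peaks. These 6 p300/CBP peaks all lay in cAEs, although no H3K4me3, H3K27ac or Pol II was listed at the start of the gene.

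At VIM the cAEs crowded around the gene. Regions of 8600 and 4100 bp lay between 22.8 and 7.59 kb upstream and a region of 5350 bp covered the 3' part of the gene, and all 3 also overlapped H3K4me3 and Pol II. At ZEB1 a pair of cAEs flanked the promoter at 1.70 to 5.94 kb upstream and 1.76 to 5.46 kb downstream, and another 3 lay in introns 1 and 4 and a last one past the gene. SNAI2 had its cAE 3.66 kb upstream, over the start of an lncRNA gene. At FN1 a cAE of 3350 bp lay 2.49 kb downstream of the TSS, another began 23.7 kb downstream in intron 13, and the cAE with most H3K27ac (4650 bp) lay 91.6 kb upstream between genes. At TWIST1 all 3 cAEs began at least 106 kb downstream of the start, and 2 of them lay inside the neighbouring gene HDAC9. The annotated TWIST1 gene spans 96.6 kb but its canonical transcript only 2.17 kb. These cAEs, and the p300/CBP peaks of the locus, lie more than 100 kb from that transcript.

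CDH2, bare at its start, had 6 cAEs. A region of 5450 bp in intron 2, 60.6 kb downstream, held 4250 bp of H3K27ac and 2 p300/CBP peaks. A pair of regions past the 3' end, 332 and 337 kb from the TSS, were nearly covered by H3K27ac (2400 of 2450 bp and 2250 of 2250 bp) and held a p300/CBP peak each. No Pol II peak was listed anywhere in the CDH2 locus, as also in those of GRHL2 and TWIST1, while the other 7 loci held 1 to 7.

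**Figure D4:**
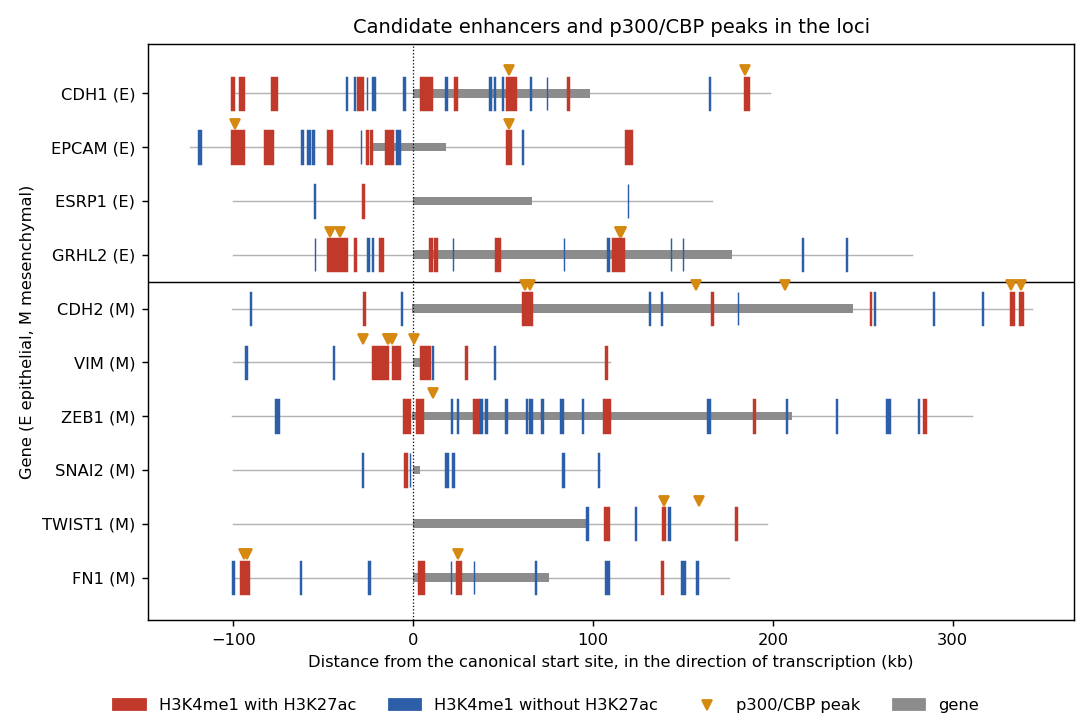
Candidate active enhancers (red), candidate inactive enhancers (blue) and p300/CBP peaks (orange triangles) in the gene (grey bar) with 100 kb either side, plotted by distance from the canonical TSS in kb in the direction of transcription (E epithelial, M mesenchymal). The 4 epithelial loci hold 25 active candidates and 10 p300/CBP peaks, the 6 mesenchymal loci 25 and 17.

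p300/CBP peaks numbered 10 in the epithelial loci (2 at CDH1, 2 at EPCAM, 0 at ESRP1 and 6 at GRHL2) and 17 in the mesenchymal loci (6 at CDH2, 5 at VIM, 1 at ZEB1, 0 at SNAI2, 2 at TWIST1 and 3 at FN1), and the median over all genes was 0. All 10 epithelial peaks lay in cAEs, as did 9 of the 17 mesenchymal peaks. Over all p300/CBP peaks outside the mitochondrial genome, 7004 of 13983 overlapped cAEs, so the mesenchymal share is near that of all peaks. Of the 10 epithelial peaks, 6 were at GRHL2 alone. Of the 5 peaks at VIM, 1 lay in a cAE, and all 5 shared bases with H3K27ac. CDH2 had 2 of its 6 peaks outside H3K27ac and H3K4me1, and the ZEB1 peak, 11.0 kb downstream in intron 1, and 1 of the 2 TWIST1 peaks, 159 kb downstream in HDAC9, also lay outside both. Peaks within 1 cAE are not independent of each other, so these are counts of peaks and not of enhancers.

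The letters TGANTCA, the core of the site that AP-1 factors such as FOS and JUN bind (a palindrome apart from its middle base, so both strands are read), were found in 4 of the 10 epithelial and in 6 of the 17 mesenchymal p300/CBP peaks. These are shares of 40.0% (95% Wilson interval 16.8% to 68.7%) and 35.3% (17.3% to 58.7%), and the intervals cover counting error only. Over all 13983 p300/CBP peaks outside the mitochondrial genome the share was 28.1% (27.4% to 28.8%), and over the 7004 that overlap cAEs it was 43.8% (42.6% to 45.0%). The intervals of the members' shares include both of these. They treat each peak as independent, which peaks of the same cAE are not, and peaks differ in width. A difference between the sets was therefore not tested. Peaks from both groups are shown on the plus strand of hg19 with the motif in capitals, followed by a further CDH1 peak without it.
CDH1 locus (chr16:68955801-68955900, in an intron of TANGO6): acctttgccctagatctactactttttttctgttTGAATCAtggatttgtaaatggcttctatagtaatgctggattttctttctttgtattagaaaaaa
CDH2 locus (chr18:25419201-25419450, between genes): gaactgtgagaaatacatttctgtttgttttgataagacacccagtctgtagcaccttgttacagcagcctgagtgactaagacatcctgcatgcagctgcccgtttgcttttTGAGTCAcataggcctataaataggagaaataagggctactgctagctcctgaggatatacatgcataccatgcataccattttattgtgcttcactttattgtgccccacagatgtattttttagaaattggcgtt
TWIST1 locus (chr7:19017801-19018050, in an intron of HDAC9): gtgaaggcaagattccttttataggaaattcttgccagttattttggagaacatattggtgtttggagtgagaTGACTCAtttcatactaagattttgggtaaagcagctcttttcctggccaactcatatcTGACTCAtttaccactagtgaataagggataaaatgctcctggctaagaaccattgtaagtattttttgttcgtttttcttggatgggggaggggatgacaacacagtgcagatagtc
FN1 locus (chr2:216275651-216275950, FN1 intron 13): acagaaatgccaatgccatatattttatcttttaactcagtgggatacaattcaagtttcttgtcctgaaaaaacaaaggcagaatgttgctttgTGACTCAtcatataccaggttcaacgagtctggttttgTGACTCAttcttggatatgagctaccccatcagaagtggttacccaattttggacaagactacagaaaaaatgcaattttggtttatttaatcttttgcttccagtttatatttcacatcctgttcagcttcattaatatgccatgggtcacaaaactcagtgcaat
CDH1 locus (chr16:68824151-68824400, CDH1 intron 2): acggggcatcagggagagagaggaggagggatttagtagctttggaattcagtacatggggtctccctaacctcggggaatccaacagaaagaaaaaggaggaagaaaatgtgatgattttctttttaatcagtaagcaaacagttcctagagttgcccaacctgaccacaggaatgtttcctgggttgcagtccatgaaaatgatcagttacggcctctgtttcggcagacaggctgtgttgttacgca
The TWIST1 and FN1 peaks each hold 2 copies, at positions 74 and 133 and at 96 and 134 of the peak. TGANTCA was thus found in loci with bare starts (CDH1, CDH2 and TWIST1). It was also found in the body of FN1, whose start carried H3K27ac and Pol II. The CDH1 match is TGAATCA, and neither CDH1 peak holds TGACTCA or TGAGTCA, the AP-1 consensus in the paper. Those stricter letters were in 3 of 10 epithelial peaks, at EPCAM and GRHL2, and in 6 of 17 mesenchymal peaks. Their share was 20.7% over all p300/CBP peaks and 33.2% over those in cAEs. The CDH2 and TWIST1 peaks shown, 338 and 139 kb from the TSS, would fall outside loci drawn from canonical transcripts.

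CTCF peaks numbered 24 in the 4 epithelial loci (5 to 7 per gene) and 19 in the 6 mesenchymal loci, of which VIM held 8 and the other 5 genes 2 or 3 each. The median per locus was 6 in the epithelial and 2 in the mesenchymal group, beside 5 over all genes. Per base, CTCF covered 0.477% to 0.826% of the epithelial loci and 0.135% to 0.955% of the mesenchymal loci, so the ranges overlapped through VIM alone. The epithelial loci were close to the all-gene median of 0.658%. Leaving VIM aside, the mesenchymal loci ran from 0.135% (CDH2) to 0.416% (SNAI2).

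The miR-200 family was read for its link with ZEB1. MIR200C and MIR141 lie together on chr12:7072862-7073354, and the start of MIR200C had H3K4me3, H3K27ac, H3K4me1, Pol II and CTCF within its 3 kb window. MIR200B, MIR200A and MIR429 lie together on chr1:1102484-1104467, where no H3K27ac, H3K4me3 or Pol II peak was found within 7.93 kb of the hairpin starts and an H3K4me1 region of 850 bp lay 0.616 kb from MIR429. The hairpin is not the TSS of a primary transcript. MIR200C and MIR141 are inside the lncRNA gene MIR200CHG, whose annotated start had the same 5 marks, and the nearest protein-coding start, that of PHB2, is 6.96 kb from MIR200C and is itself marked by H3K27ac and Pol II. The mature sequences, from RefSeq on GRCh38.p14, are shown because the clusters share their seeds, with bases 2 to 8 in capitals.
miR-200c-3p: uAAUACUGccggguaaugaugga
miR-200b-3p: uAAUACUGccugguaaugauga
miR-429: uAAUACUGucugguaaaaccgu
miR-141-3p: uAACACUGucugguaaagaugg
miR-200a-3p: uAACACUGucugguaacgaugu
The first 3 share the seed AAUACUG and the last 2 the seed AACACUG, so each seed has a member in the cluster with promoter marks and a member in the cluster without them. MIR205 was not analysed here for want of an hg19 position.

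To place the 10 genes among others of the same kind, 30 further epithelial and 30 further mesenchymal genes were read in the same way. H3K27ac was found in the TSS window of 14 of the 30 epithelial and 20 of the 30 mesenchymal genes, beside 61.4% of all genes. For H3K4me3 the counts were 19 and 17, or 63.3% and 56.7%, beside 62.7% of all genes. Pol II was found at 14 and 14 (46.7% each, beside 58.4%), H3K4me1 at 23 and 17 (76.7% and 56.7%, beside 59.3%), CTCF at 6 and 9 of 30 (beside 17.6%) and p300/CBP at 0 and 0 (beside 0.769%). The epithelial count was thus the lower one for H3K27ac, as among the 10 genes, while the counts for Pol II were equal and the epithelial share for H3K4me3 lay at that of all genes. H3K4me3, H3K27ac and Pol II were found together at 12 of the 30 epithelial and 13 of the 30 mesenchymal genes, beside 56.2% of all genes. The line is labelled basal b, and CD44, a surface marker of that type, was among these 13, with 2417 bp of H3K27ac. CD44 was named after its values were seen, so it does not stand for the markers of that type.

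The epithelial genes with H3K27ac at the start included the keratin genes KRT8, KRT18 and KRT19, the junction genes CLDN4, CLDN7, DSP, JUP and PKP3, the tricellular junction gene LSR, the polarity gene LLGL2, the protease inhibitor gene SPINT2, and ELF3 and ESRP2. Of these, KRT8, KRT18, KRT19 and SPINT2 had 3000 bp of the window covered. ESRP2, the paralogue of ESRP1, had H3K4me3, H3K27ac, H3K4me1 and Pol II at its start with 1179 bp of H3K27ac, where ESRP1 had 0. The 10 mesenchymal genes without H3K27ac were ACTA2, COL1A2, DDR2, LUM, MMP2, POSTN, PRRX1, TCF4, THY1 and TWIST2, and 9 of them, all but COL1A2, had none of the 6 marks. TWIST2 was thus bare like TWIST1, while the ZEB1 paralogue ZEB2 and the SNAI2 paralogue SNAI1 had H3K27ac with 1465 and 550 bp of the window covered. ZEB2 and SNAI1 were named after their values were seen.

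H3K4me3 without H3K27ac, whatever the other marks, was found at 7 of the 30 further epithelial genes and at 0 of the 30 mesenchymal genes. This class includes ESRP1 and holds 533 protein-coding genes in all (2.68%). The 7, named after their values were seen, were GRHL1, OVOL2, CDH3, CRB3, MARVELD2, MAL2 and CDS1. Unlike ESRP1, GRHL1 also had Pol II and OVOL2 lacked H3K4me1. GRHL1 and OVOL2 encode epithelial transcription factors, CRB3 a polarity protein and MARVELD2 a tight junction protein. None of the 6 marks was found at 5 of the 30 epithelial and 9 of the 30 mesenchymal genes, beside 28.0% of all genes, so the mesenchymal count is near that of all genes.

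**Figure D5:**
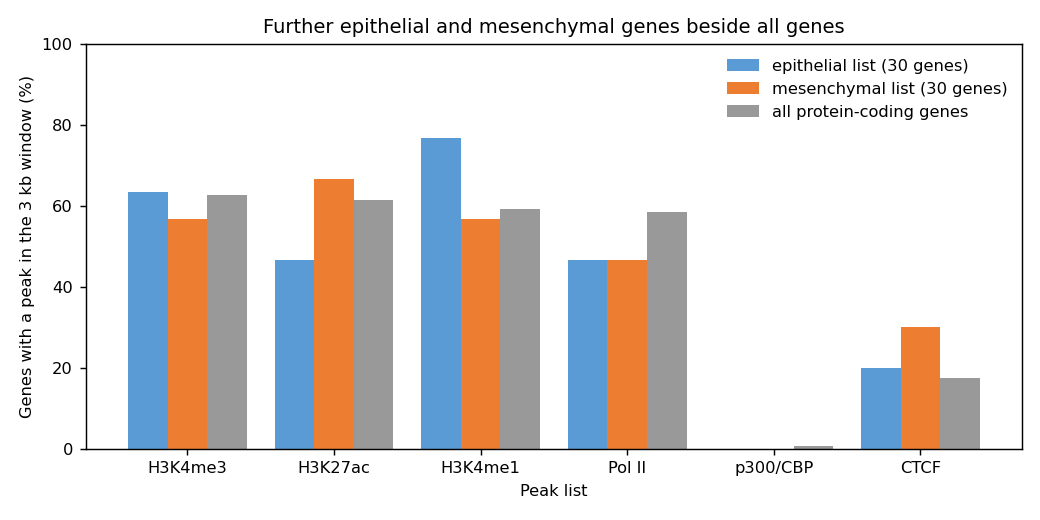
Share of genes (%, from 0) with a peak of each list in the 3 kb TSS window among 30 further epithelial genes (blue), 30 further mesenchymal genes (orange) and all protein-coding genes (grey). H3K27ac was found at 46.7% and 66.7% of the 2 lists beside 61.4% of all genes, and Pol II at 46.7% of both.

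Over the loci of these lists H3K27ac covered a median of 8.37% for the epithelial and 6.49% for the mesenchymal genes, beside 3.79% over all genes. By covered bases, in loci of unequal length, the most acetylated epithelial loci were those of RAB25 (50.6 kb of H3K27ac), CLDN7 (42.8 kb) and SPINT2 (38.4 kb). By share of the locus KRT18 (16.5%) was above SPINT2 (15.4%). The start of RAB25, a small GTPase gene, had H3K4me1 but no H3K27ac. By covered bases NT5E (43.9 kb), S100A4 (36.8 kb) and COL1A1 (36.4 kb) led the mesenchymal loci, all with H3K27ac at the start. The loci include neighbours, so the covered bases need not belong to the named gene.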

How the data were processed

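The ChIP-seq libraries of MDA-MB-231 cells comprise 2 replicates per antibody and, for p300/CBP, 1 library from pooled immunoprecipitations. Reads were aligned to hg19 by the authors, with BWA-backtrack per the methods of the study, while the processing notes of the submitters name Bowtie2. Uniquely mapped reads were binned at 50 bp with PASHA, replicates were merged, and runs of bins over a threshold, joined across gaps that were longest for H3K4me1, were called as peaks, so neighbouring peaks are fused and wide peaks favoured. The deposited files give, per antibody, peak starts and ends as positions in bp (another unit than a count or score). Depth per sample is therefore unknown and no replicate could be compared. Input libraries were not analysed here, and 0 columns were left unmapped.

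Positions were read with Python 3.11.15, NumPy 2.4.6, SciPy 1.17.1 and pysam 0.24.0 and plotted with matplotlib 3.10.9. Ends were taken as the first base after the peak. GENCODE release 44 on GRCh37 replaced RefSeq, with 1 canonical TSS per gene. Overlap meant that 1 bp or more was shared. No test was made, since genes are not replicates. Medians and counts stand beside those of 19894 protein-coding genes, and shares of peaks carry 95% Wilson intervals, which cover counting error only. The code for intervals was tested on simulated data (0 wrong answers in 6003 comparisons). The members, the 2 lists of 30 genes, the miRNA genes and the motifs were chosen with earlier results of these data known. Genes were named by a rule: all 10 members, the further epithelial genes with and mesenchymal genes without H3K27ac at the start, the 3 most acetylated loci of each list, the miRNA genes and neighbours, and any other is said to have been chosen afterwards. Alternatives changed the window, the annotated starts, the flank, the enhancer definition, the gene model and the width of the peaks kept. Some items withheld from this text are not reported here.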

Additional observations from a re-analysis of the deposited data

How the results depend on the processing

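No replicate could be left out and no stricter threshold applied, since replicates were merged before peaks were called and no value per peak is given. No paired analysis was possible because no result comes from a test and the lists carry no replicates. In its place, peaks narrower than the median width of their list were dropped (called wide peaks here). Of 124 alternative values, 90 were within 1.5 times the reported one (for motif shares, within the Wilson interval) and 34 were not, and the cause was not tested beyond how each alternative is built. The mesenchymal counts of H3K4me3, H3K27ac and Pol II at the start were within that limit in every setting tried. Reading any annotated start, the epithelial counts were 2 for H3K4me3, 1 for H3K27ac, 2 for H3K4me1 and 1 for Pol II, all through EPCAM. With the TSS base itself covered, H3K4me3 (epithelial), H3K4me1 (both groups), p300/CBP and CTCF (mesenchymal) fell to 0. With wide peaks, epithelial H3K4me3 and H3K4me1 and mesenchymal CTCF were 0. With a 2 kb window mesenchymal H3K4me1 was 0, and with a 10 kb window H3K4me1 was found at 2 epithelial and 4 mesenchymal genes and CTCF at 2 and 4. In the further lists, wide peaks left 10 epithelial and 13 mesenchymal genes with H3K27ac, and a 10 kb window gave 19 and 21. The median H3K27ac cover of the epithelial gene bodies, 4.70% as first read, was 2.64% with wide peaks, 1.38% without the first 1.5 kb (which also leaves out the part of EPCAM before its canonical TSS) and 1.37% with canonical transcripts as bodies, a setting added after the data were seen. For H3K4me1 the last 2 gave 4.25% and 4.22% in place of 13.1%, below the mesenchymal medians of 6.73% and 6.79%, so the order of the groups in gene body cover depends on the gene model of EPCAM. Mesenchymal Pol II cover of the body (0.684%) was 0.290% with wide peaks and 0 without the first 1.5 kb. Epithelial and mesenchymal cAEs numbered 38 and 42 with 200 kb either side, 12 and 15 with at least 50% of the region acetylated, and 10 and 14 with wide peaks. p300/CBP peaks numbered 18 and 28 with 200 kb either side, and 7 in the epithelial and 7 in the mesenchymal loci with wide peaks. Locus counts of cAEs and p300/CBP peaks were not read with canonical transcripts as the gene. That setting would shorten chiefly the loci of TWIST1, CDH2 and EPCAM. The locus shares kept the epithelial median above the mesenchymal one in every setting.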
